A study of Rattus norvegicus with 50 samples.

Results

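Untreated male Wistar rats were bled from the tail vein on 5 days, and the blood of day 21 was set here against the blood that the same rats gave at day 0. These are 8 of the 50 arrays of the series, chosen by their labels alone: naive rats, day 0 (4 arrays) and naive rats, day 21 (4 arrays), paired by animal. The naive rats were intact and received no injection of any kind, so that time, age and repeated bleeding were shared by all of them and cannot be told apart. For comparison, 6 other Wistar rats received monosodium iodoacetate (MIA) into the knee joint after the day 0 bleed, a chemical model of osteoarthritis, and were bled on the same days. Age is not given in the sources used here. RNA of whole blood was hybridised to Affymetrix arrays, 1 array per blood sample, and each value is a log2 signal of a probe set, a group of probes for 1 transcript.

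Whole blood RNA is a mixture. Red cells lose their nucleus before they leave the bone marrow, and the youngest of them, the reticulocytes, still carry RNA for globins, for heme synthesis and for the membrane skeleton, which they lose as they mature. White cells give the rest, with neutrophils and monocytes on the myeloid side and T cells, B cells and natural killer (NK) cells on the lymphoid side. Loss of blood is known to raise the output of reticulocytes in rodents, and in bulk blood a lower number of cells of a type and less RNA in each of them cannot be told apart.

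The 8 arrays resembled each other, with correlations over all probe sets from 0.926 to 0.973, and no array was a copy of another. The array of day 21 replicate 4 was dimmer than the rest. Its upper quartile was 3.58, whereas the other 7 arrays were between 3.84 and 4.06, and its median change over all probe sets was −0.19 against −0.03, 0.01 and −0.02 in replicates 1 to 3. The tissue label fitted its defining markers: the globin transcripts Hbb-b1 and Hba-a3 lay between 12.0 and 12.4 on the 8 arrays, where the brightest probe set of an array was at 12.3 to 12.4. One further array of the series, MIA day 21 replicate 4, stood apart from all others and was left out of the fit.

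Sequences are shown for the 2 kinds of regulatory element that the results touch, a microRNA whose gene's probe set was higher and the start sites of erythroid genes that fell. Mir223, a microRNA made mainly by neutrophils and monocytes, was the 1 probe set higher at day 21 among 26 of microRNA genes. Of all 36685 probe sets, 0.341% were higher. The adjusted p of Mir223 was 0.0445 by limma and was no longer under 0.05 without replicate 1, 2 or 4. Both mature strands are given with the seed, bases 2 to 8, in capitals (RefSeq, GRCr8, plus strand, chrX:65151408-65151430 and chrX:65151450-65151470).
rno-miR-223-5p: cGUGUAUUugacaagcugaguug
rno-miR-223-3p: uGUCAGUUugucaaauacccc

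Promoter windows of 250 bases before to 50 bases after the start site were searched on both strands for AGATAA, a motif bound by GATA factors, and for CCACACCC, a box bound by Klf1 and related factors. Of the 23 erythroid genes lower at day 21, 17 had a window in the table and 6 did not. The first motif was found in 2 of 17 windows of these lower genes, which is 11.8%, in 3 of 12 windows of erythroid genes that were not called, and in 11.3% of all 27457 windows of that length. The second was found in 0 of the 17 windows and in 3.23% of all windows. For AGATAA the share among the windows at hand was close to that of all windows. Only these exact strings were searched, so variants of either motif were not counted. The matching windows belonged to Trim10 and Trim58, which encode ubiquitin ligases of late erythroid cells, and are printed from RefSeq with the motif in capitals (GRCr8, Trim10 on the minus strand at chr20:1703420.0-1703719.0 and Trim58 on the plus strand at chr10:43523154.0-43523453.0). In Trim10 the motif reads as its reverse complement.
Trim10: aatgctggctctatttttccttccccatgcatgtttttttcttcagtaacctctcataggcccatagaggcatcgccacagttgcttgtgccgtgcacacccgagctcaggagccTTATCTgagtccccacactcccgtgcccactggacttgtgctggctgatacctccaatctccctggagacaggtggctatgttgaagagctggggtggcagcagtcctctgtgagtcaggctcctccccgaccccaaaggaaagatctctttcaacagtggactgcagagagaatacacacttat
Trim58: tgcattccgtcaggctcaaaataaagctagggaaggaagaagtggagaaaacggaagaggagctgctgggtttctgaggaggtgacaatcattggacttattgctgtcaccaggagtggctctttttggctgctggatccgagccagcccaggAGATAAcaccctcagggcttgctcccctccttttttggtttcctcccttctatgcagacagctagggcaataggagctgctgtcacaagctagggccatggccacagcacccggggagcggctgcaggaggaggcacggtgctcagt

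The comparison of day 21 with day 0 asks what changes in the blood of a rat that is only bled. More transcripts were lower than higher at day 21. The lower ones included many genes of red cell precursors and the higher ones genes of cytotoxic and myeloid cells. Of 36685 probe sets tested, 678 (1.85%) had an adjusted p under 0.05 in limma's moderated test with the rat as a block, and such probe sets are called here. Higher signals were called for 125 (0.341%) and lower signals for 553 (1.51%). Beyond a log2 change of 1, which is a fold change of 2, lay 30 of the higher and 65 of the lower probe sets. The sign was the same in all 4 rats for 667 of the 678, which also held for 20.4% of all probe sets. For 366 the arrays of day 0 and day 21 did not overlap, a property shared by 5.82% of all probe sets. The same values chose the 678, so these counts are no separate evidence.

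The number of calls depended on which arrays entered the fit. A fit of the 8 arrays alone called 0 probe sets, with 3939 at an unadjusted p under 0.05, where the fit of 49 arrays had 5220. Without the rat as a block 122 were called, and with the array that stood apart added to the fit only 7. The balance of directions moved with scaling as well: 18.4% of calls were higher as deposited, but 41.9% (243 of 580) after the arrays were shifted to the same median, 34.1% (297 of 870) after they were quantile-normalized again, and 44.1% (259 of 587) without the dim array of day 21 replicate 4. Left out in turn, replicates 1 to 4 gave 366, 585, 268 and 338 calls.

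**Figure D1:**
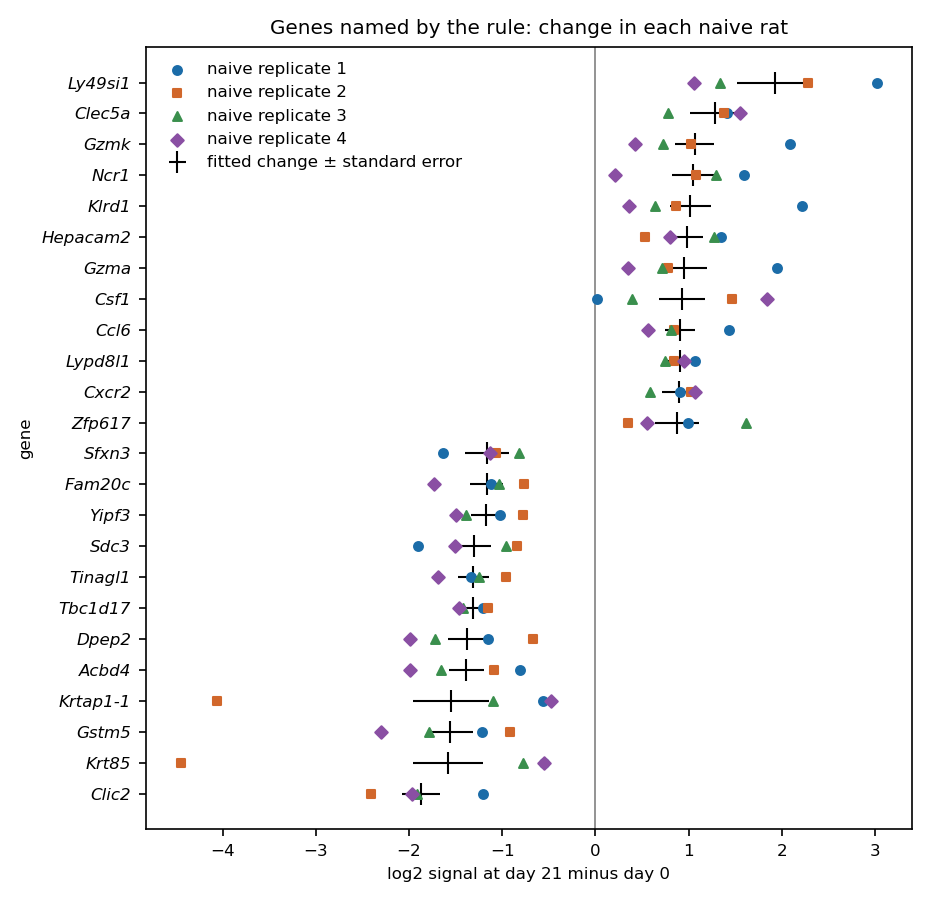
Log2 signal at day 21 minus day 0 (x axis) in each of the 4 naive rats for the 24 genes named by the rule (y axis), with the fitted change and its standard error in black. The rule took only genes that changed the same way in all 4 rats, so all 4 lie on the same side of 0 by choice. Replicate 2 stands alone for Krt85 and Krtap1-1.

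Many red cell genes were lower at day 21. Of 60 genes on a list for erythroid cells and reticulocytes, 40 were measured, and 23 of these were called lower and 0 higher, with a median log2 change of −0.55 over the list. Over all 14557 genes with 1 symbol, 338 were called lower and 61 higher and the median was −0.07. This list and those below were chosen with earlier results of these data known, so their counts are no separate evidence. The mean change over the 40 genes was −0.52, −0.35, −0.65 and −0.59 in replicates 1 to 4. Without replicates 1 to 4 in turn, 14, 21, 12 and 12 of the 40 were called lower. Calls fell to 10 with naive arrays only, to 4 with the rat as a random block, to 3 with no block, and to 0 with all 50 arrays or with the 8 arrays alone. Without the dim array 15 were called and the median was −0.50.

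The transcription factor of the group was Klf1, which switches on globin, heme and membrane genes in erythroblasts. Its signals were 8.35, 8.56, 8.21 and 8.31 at day 0 and 7.36, 7.81, 6.85 and 7.31 at day 21 in replicates 1 to 4. Every day 21 array was below every day 0 array, and the change was −1.02 (SE 0.19, adjusted p = 0.00145 by limma). Of other erythroid factors, Tal1 (−0.14) and Nfe2 (−0.23) were not called. Klf1, Abcb10, Trim10, Trim58, Slc6a9, Eif2ak1 and Mir223 were chosen after their values were seen.

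Genes that bring iron and build heme made up the next group. Slc25a37 (mitoferrin, the iron carrier of the inner mitochondrial membrane) read 9.31, 9.60, 9.78 and 8.83 at day 0 and 8.39, 8.97, 8.75 and 8.19 at day 21. All 4 rats fell, although replicate 4 started below where replicate 2 ended, and the change was −0.81 (SE 0.13, adjusted p = 0.000317 by limma). Abcb10, a mitochondrial transporter that partners mitoferrin, had signals of 6.59, 6.47, 6.30 and 5.33 before and 5.12, 5.97, 5.29 and 4.20 after. The days overlapped through replicate 4, the lowest on both, and the change was −1.03 (SE 0.19, adjusted p = 0.00145). Among the enzymes of heme synthesis, Alad (−0.92) and Urod (−0.70) were called lower, whereas Cpox (−0.53), Ppox (−0.35) and Fech (−0.18) were not. Slc25a38, the mitochondrial glycine carrier, fell by 0.39.

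A pair of genes outside the list belong to the same chemistry. Slc6a9, a glycine transporter of the cell surface, had signals of 8.37, 6.93, 7.36 and 6.27 at day 0 and 7.11, 6.02, 6.45 and 4.75 at day 21. Rats differed more from each other than the days did, and every rat fell, for a change of −1.15 (SE 0.16, adjusted p = 5.17e-05 by limma). Eif2ak1, the kinase that slows translation in erythroid cells short of heme, read 8.44, 8.35, 8.47 and 7.81, then 7.58, 7.54, 7.15 and 6.52. Its 2 days did not overlap, and the change was −1.07 (SE 0.14, adjusted p = 2.9e-05).

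Of 18 membrane and skeleton genes on the erythroid list, grouped after the values were seen, 10 were measured, and 8 of these were called lower and 0 higher. The whole erythroid list had 23 of 40 called lower, and all genes with 1 symbol had 338 of 14557. Whether the membrane genes differed from the rest of the list was not tested. Aqp1, the water channel that is abundant in the red cell membrane, was at 10.3, 9.78, 10.2 and 10.0 at day 0 and at 9.26, 9.63, 9.24 and 9.29 at day 21. The days were separate, with replicate 2 the closest pair, and the change was −0.70 (SE 0.12, adjusted p = 0.000951 by limma). Slc4a1 (band 3, the anion exchanger) fell by 0.44, Epb42 (protein 4.2) by 0.48, Tmod1 (a cap of actin filaments) by 0.66, Dmtn (dematin) by 0.74, Gypc (glycophorin C) by 0.79 and Rhag (a subunit of the Rh complex) by 0.63, and Kel (a blood group antigen) by 0.49. Icam4 (−0.64), an adhesion molecule, and Slc2a1 (0.09), a glucose transporter, were not called.

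Among genes of the last steps of maturation, Rnf123, an E3 ubiquitin ligase, read 8.71, 8.77, 8.71 and 7.98 at day 0 and 7.67, 8.04, 7.68 and 7.17 at day 21. Each rat was lower, with replicate 4 low on both days, and the change was −0.90 (SE 0.14, adjusted p = 0.000132 by limma). Blvrb, a biliverdin reductase of red cells, went from 9.41, 9.55, 9.55 and 8.71 to 8.43, 9.03, 8.32 and 7.90. Its change was −0.89 (SE 0.16, adjusted p = 0.000824), and replicate 4 at day 0 lay within the range of day 21. Ube2o, which marks surplus proteins of the reticulocyte for removal, fell by 0.58 and Xpo7, a nuclear exporter needed for nuclear condensation, by 0.50. Trim10 (−0.82, adjusted p = 0.00514) and Trim58 (−0.75, adjusted p = 0.0388), whose start sites are printed above, fell in all 4 rats. The call of Trim58 was lost without replicate 1, 3 or 4 (adjusted p = 0.0874, 0.289 and 0.0749) and that of Trim10 without replicate 4 (adjusted p = 0.117).

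The globins themselves were not called. Hbb-b1 changed by −0.14 (adjusted p = 0.395 by limma), Hba-a3 by −0.02 (adjusted p = 0.956) and Hba-a1 by −0.25 (adjusted p = 0.373). Hbb-b1 and Hba-a3 stood near the brightest values of the arrays on both days, where a change may not be visible. Epor, the erythropoietin receptor (−0.77), and Tfrc, the transferrin receptor (−0.67, adjusted p = 0.0740), also missed the threshold.

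**Figure D2:**
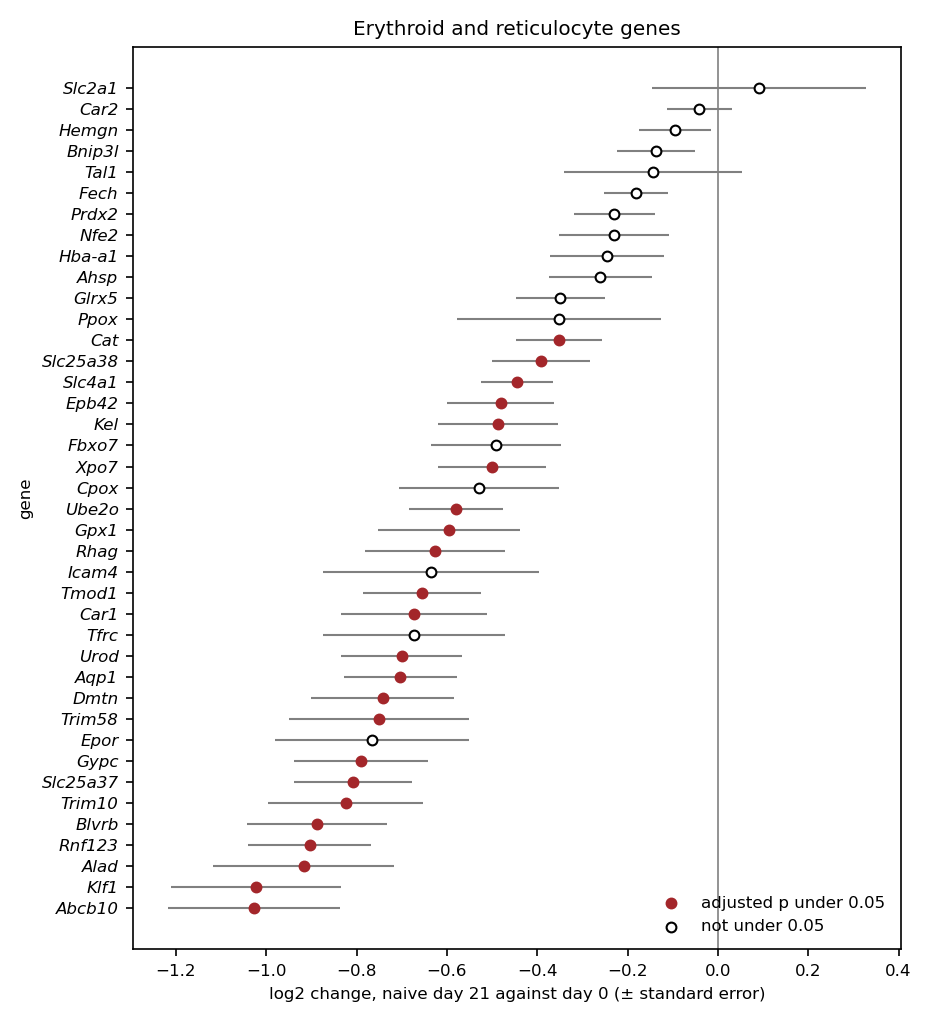
Log2 change from day 0 to day 21 in naive rats with its standard error (x axis) for the 40 measured genes of the erythroid and reticulocyte list (y axis). Filled points are the 23 genes with an adjusted p under 0.05, all of them below 0, and 39 of the 40 changes are below 0.

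Some mitochondrial and autophagy genes were lower as well. Of 58 measured subunits of oxidative phosphorylation, 9 were called lower and 0 higher, with a median change of −0.22, where 338 of all 14557 genes were lower. Atp5f1b, the beta subunit of ATP synthase, was at 8.97, 9.22, 9.23 and 8.56 at day 0 and at 8.45, 8.61, 8.04 and 7.95 at day 21, which overlapped narrowly. Its change was −0.73 (SE 0.13, adjusted p = 0.000989 by limma). Ndufa12 and Ndufb11 of complex I (−0.83 and −0.59) and Cox8a of complex IV (−0.77) followed. The list mean differed among rats, at 0.01, −0.11, −0.35 and −0.44 in replicates 1 to 4. Without replicate 3, 0 of the 58 were called, the adjusted p of these 4 genes being 0.0599, 0.115, 0.135 and 0.0877. Without replicates 1, 2 and 4, the numbers were 4, 8 and 2, and without the dim array the median was −0.11 and 4 were called. With the rat as a random block 3 were called, with naive arrays only 2, with no block 1 and with all 50 arrays 0. Ndufb11 and Cox8a were lost without replicate 4 as well (adjusted p = 0.0605 and 0.0581), and Cox8a without replicate 1 (adjusted p = 0.0776).

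Autophagy is the route by which reticulocytes clear their mitochondria, and 8 of 27 measured autophagy genes were called lower and 0 higher, with a median of −0.14, beside 338 lower of all 14557 genes. Gabarapl1, a ubiquitin-like protein of the autophagosome membrane, had signals of 6.44, 6.34, 5.99 and 6.37 at day 0 and 5.85, 5.57, 4.91 and 4.98 at day 21. The days did not overlap, and the change was −0.96 (SE 0.16, adjusted p = 0.000453 by limma). Rb1cc1 (−0.59), Ulk1 (−0.66), both of the kinase complex that starts autophagy, Wipi1 (−0.68) and Wipi2 (−0.83), which read its lipid signal, and the cargo receptors Nbr1 (−0.66), Optn (−0.44) and Calcoco1 (−0.48) were the others. Bnip3l, the receptor for mitochondria in reticulocytes, changed by −0.14 and was not called. Without replicates 1 to 4 in turn, 4, 7, 2 and 2 were called, and without the dim array 5 with a median of −0.06. Naive arrays alone gave 3, a random block for the rat 2, no block 1 and all 50 arrays 0. Rb1cc1 was lost without replicate 4 (adjusted p = 0.0614), Wipi2 without replicate 3 or 4 (adjusted p = 0.129 and 0.0512) and Wipi1 without replicate 1 or 3 (adjusted p = 0.120 and 0.0515).

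Of the lists for glycolysis and iron handling, 2 genes each were called, all lower, beside 338 lower of all 14557 genes. Pklr, the pyruvate kinase of red cells and liver, went from 5.17, 4.86, 4.96 and 4.41 to 3.78, 4.35, 3.73 and 3.29 without overlap, a change of −1.06 (SE 0.18, adjusted p = 0.000739 by limma). Slc16a1, a lactate transporter of red cells, fell by 0.69, whereas Hk2 (0.68) and Pkm (0.40) did not pass, which left 2 of 14 glycolysis genes called. Of 25 genes for iron handling and the response to hypoxia, 2 were called lower. These were Steap3, the iron reductase of erythroid endosomes (−0.94, adjusted p = 0.0170), and Hmox1, heme oxygenase (−0.58, adjusted p = 0.0497). Steap3 was lost without replicate 3 or 4 (adjusted p = 0.0563 and 0.106), Hmox1 likewise (adjusted p = 0.379 and 0.226), and Slc16a1 without replicate 1 or 3 (adjusted p = 0.0784 and 0.0978).

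The lower genes with the largest changes lay outside these lists. Genes named for the size of their change, lower or higher, were taken only if all 4 rats changed the same way. Clic2, a chloride intracellular channel protein, had signals of 7.85, 4.57, 8.42 and 7.63 at day 0 and 6.65, 2.17, 6.51 and 5.67 at day 21. Replicate 2 was far below the other rats on both days, and each rat fell, for a change of −1.87 (3.66-fold, SE 0.20, adjusted p = 2.56e-06 by limma). Gstm5, a glutathione S-transferase, read 5.20, 5.71, 5.32 and 5.42, then 3.98, 4.79, 3.53 and 3.13. Its days were separate, with a change of −1.56 (SE 0.25, adjusted p = 0.000241). Acbd4, which binds acyl-CoA, was at 5.54, 4.90, 5.48 and 5.46 before and at 4.73, 3.81, 3.83 and 3.47 after, again without overlap (change −1.39, SE 0.19, adjusted p = 3.52e-05). Tinagl1, a secreted matrix protein, went from 9.25, 8.88, 9.34 and 8.37 to 7.92, 7.92, 8.09 and 6.69. The change was −1.31 (SE 0.17, adjusted p = 1.35e-05) and replicate 4 was the lowest on both days.

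Further named genes in this direction were Dpep2, a membrane dipeptidase (−1.38), Tbc1d17, a regulator of Rab GTPases (−1.31), Sdc3, a heparan sulfate proteoglycan (−1.30), Yipf3, a Golgi membrane protein (−1.17), Fam20c, the kinase of secreted proteins (−1.17), and Sfxn3, a mitochondrial serine carrier (−1.16). Except for Fam20c, where replicate 4 at day 0 fell inside the range of day 21, the days of these 6 genes did not overlap. Their adjusted p ran from 3.43e-05 for Tbc1d17 to 0.00489 for Sfxn3, and the call of Sfxn3 alone was lost when a rat was left out (adjusted p = 0.0809 without replicate 1).

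Some genes of cytotoxic lymphocytes rose. Of 28 measured genes on a list for NK and cytotoxic cells, 5 were called higher and 0 lower, with a median change of 0.36, where 61 of all 14557 genes were higher. Gzmk, a granule protease, had signals of 4.36, 4.82, 4.48 and 5.12 at day 0 and 6.45, 5.85, 5.21 and 5.55 at day 21. All day 21 arrays were above all day 0 arrays, most of all in replicate 1, and the change was 1.07 (2.09-fold, SE 0.21, adjusted p = 0.00242 by limma). Klrd1 (CD94, a subunit of NK receptors) went from 4.20, 4.77, 4.65 and 5.05 to 6.42, 5.64, 5.29 and 5.41, without overlap (change 1.02, SE 0.22, adjusted p = 0.00783). Ncr1 (NKp46, a receptor that marks NK cells) read 3.92, 3.98, 3.61 and 4.67, then 5.51, 5.07, 4.91 and 4.88. Its days were separate by a small margin (change 1.05, SE 0.23, adjusted p = 0.00796).

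Gzma, a second granule protease, was at 4.36, 4.93, 4.45 and 4.47 at day 0 and at 6.30, 5.71, 5.16 and 4.82 at day 21. Replicate 4 at day 21 was below replicate 2 at day 0, and the change was 0.95 (SE 0.25, adjusted p = 0.0362 by limma). Nkg7, a granule membrane protein, rose by 0.81 (adjusted p = 0.0406). Klrc1 (0.77), Prf1 (0.60) and Gzmb (0.58), the NKG2A receptor, perforin and granzyme B, did not pass, and neither did Klrb1 (−0.39) or S1pr5 (−0.29). A member of the Ly49 family of rodent NK receptors, Ly49si1, was outside the list and had the largest rise among the named genes. Its signals were low at day 0 (1.45, 2.01, 2.68 and 3.01) and reached 4.48, 4.29, 4.02 and 4.07 at day 21, a change of 1.93 (SE 0.41, adjusted p = 0.00621). Genes of this family are near copies, so the probe set may read relatives too.

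Replicate 1 carried much of this group. The mean change over the 28 genes was 0.73, 0.37, 0.38 and −0.06 in replicates 1 to 4, and the last of these is the rat with the dim array. Without replicate 1, 0 of the 28 were called, with an adjusted p of 0.0893 for Gzmk, 0.154 for Klrd1, 0.123 for Ncr1, 0.352 for Gzma and 0.121 for Ly49si1. The median change was then 0.34. Without replicates 2, 3 and 4, 3, 2 and 5 were called, and Gzma was lost without replicate 2 or 3 (adjusted p = 0.0857 and 0.0839) and Ncr1 without replicate 3 (adjusted p = 0.0887). Without the dim array, 8 were called and the median was 0.52. A random block for the rat left 3 calls, no block or naive arrays only left 2, and all 50 arrays left 0.

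T and B cell genes showed no calls, and of all 14557 genes only 61 were called higher and 338 lower. At that share, lists this short may well hold none. For T cells, 0 of 25 measured genes passed (median 0.13), and for B cells 0 of 14 (median −0.07). On lists for MHC class II presentation and for lymphocyte quiescence and homing, 1 gene each was higher. RT1-Da, the alpha chain of a class II molecule, rose by 0.43 (adjusted p = 0.0170 by limma), and Btg1, an inhibitor of proliferation, by 0.44 (adjusted p = 0.0209), both without overlap of the days. The first was lost without replicate 1 or 2 (adjusted p = 0.0752 and 0.131), the second without replicate 1, 3 or 4 (adjusted p = 0.124, 0.0874 and 0.150).

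Some myeloid genes rose as well. Of 27 measured neutrophil genes 5 were called higher and 0 lower, with a median of 0.21, beside 61 higher of all 14557 genes. Cxcr2, the receptor for neutrophil chemokines, was at 6.82, 7.03, 7.00 and 5.91 at day 0 and at 7.73, 8.05, 7.59 and 6.98 at day 21. Each rat rose, and replicate 4 was low on both days, so that the days overlapped (change 0.90, SE 0.18, adjusted p = 0.00462 by limma). Csf3r, the receptor for granulocyte colony-stimulating factor, went from 6.90, 7.36, 7.00 and 5.97 to 7.47, 7.99, 7.71 and 7.17 (change 0.77, SE 0.16, adjusted p = 0.00622). Lyz2, lysozyme, was bright throughout and separated the days, from 10.5, 10.7, 10.8 and 10.6 to 11.1, 11.3, 11.4 and 11.3 (change 0.63, SE 0.13, adjusted p = 0.00372). Alox5ap, a partner of 5-lipoxygenase in leukotriene synthesis, rose by 0.77 and Trem1, an activating receptor, by 0.76.

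Of the granule genes of immature neutrophils, Elane (−0.33), Ngp (−0.71), Ltf (−0.22), Camp (−0.24) and Mmp8 (0.59) were not called. Nor were the alarmins S100a8 (0.37) and S100a9 (0.45), which like Mmp8 lay above the list median of 0.21. Whether these genes differed from the called ones was not tested. Without replicates 1 to 4 in turn, 4, 4, 4 and 2 of the 27 were called, with the rat as a random block 1, and with no block or all 50 arrays 0. Without replicate 4, the adjusted p was 0.0518 for Cxcr2 and 0.106 for Csf3r. Without replicate 3, it was 0.0540 for both Lyz2 and Csf3r, and without replicate 1 it was 0.0506 for Alox5ap.

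Mir223, whose mature strands are given above, had signals of 5.80, 6.72, 6.87 and 5.44 at day 0 and 7.25, 7.34, 6.99 and 6.45 at day 21. All 4 rats rose, replicate 3 by little, and the days overlapped (change 0.80, SE 0.22, adjusted p = 0.0445 by limma). The call was lost without replicate 1, 2 or 4 (adjusted p = 0.330, 0.0561 and 0.177). A probe set of the gene reads the precursor or host transcript, not necessarily the mature strands.

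Clec5a, a lectin receptor of myeloid cells, read 2.50, 3.14, 3.55 and 1.78 at day 0 and 3.91, 4.52, 4.33 and 3.33 at day 21. It rose in every rat, and the days overlapped (change 1.28, SE 0.27, adjusted p = 0.00489 by limma), and the adjusted p was 0.0541 without replicate 4. Ccl6, a chemokine of rodent myeloid cells, went from 8.02, 8.45, 8.26 and 8.02 to 9.46, 9.29, 9.07 and 8.58 without overlap (change 0.91, SE 0.16, adjusted p = 0.000865). Csf1, the growth factor of macrophages, was at 4.94, 4.39, 4.65 and 3.30 and then at 4.96, 5.85, 5.04 and 5.14. Replicate 1 hardly moved, and the change of 0.93 (SE 0.25, adjusted p = 0.0384) was lost without replicate 2, 3 or 4 (adjusted p = 0.193, 0.0618 and 0.298).

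Of 25 measured monocyte and macrophage genes, 2 were called higher, Csf1 and Tlr4 (0.71, adjusted p = 0.0337 by limma), and 1 lower, Ctsd, a lysosomal protease (−0.48, adjusted p = 0.00800). Over all 14557 genes, 61 were called higher and 338 lower. In the interleukin 1 and inflammasome list, Il1b (0.74) and Il18rap (0.68) were higher among 17, while Il1rn (0.63) and Nlrp3 (0.55) did not pass. Il5ra, the eosinophil interleukin 5 receptor, rose by 0.85 from signals of 1.78 to 2.10 at day 0 and was the 1 call among 18 genes of eosinophils, basophils and mast cells. Each of Tlr4, Il1b, Il18rap, Il5ra and Ctsd lost its call when at least 1 rat was left out, with the highest adjusted p at 0.236 (Tlr4 without replicate 3), 0.282 (Il1b without replicate 1), 0.170 (Il18rap without replicate 3), 0.285 (Il5ra without replicate 1) and 0.152 (Ctsd without replicate 3).

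Hepacam2, a cell adhesion protein, was low but separated the days, from 2.51, 2.14, 2.55 and 2.06 to 3.85, 2.67, 3.83 and 2.86 (change 0.99, SE 0.16, adjusted p = 0.000432 by limma). Lypd8l1 rose by 0.90 (adjusted p = 0.00157), and both kept their call whichever rat was left out. Zfp617, a zinc finger gene, rose by 0.88 (adjusted p = 0.0438) and lost its call without replicate 1, 3 or 4 (adjusted p = 0.148, 0.332 and 0.0754). The largest rise of all, 3.33 (adjusted p = 0.00145), belonged to a probe set with several olfactory receptor symbols and is given no gene name. Its signals were 5.29, 5.31, 5.27 and 8.51 at day 0 and 8.00, 9.87, 8.55 and 11.3 at day 21. Replicate 4 was the highest on both days, and each rat rose.

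Several other lists gave few or no calls, beside 61 higher and 338 lower of all 14557 genes. None of 19 platelet genes (median −0.01), 19 interferon response genes (0.03), 14 glucocorticoid response genes (0.08) or 11 clock genes (0.08) passed in limma's test. Among 29 cell cycle genes 1 was lower, Cdc20 (−0.87, adjusted p = 0.0494), and the median was −0.22, with 22 of the 29 below 0. Among 21 immediate early genes (median −0.01) 1 was lower, Jund (−0.64, adjusted p = 0.0201). Of 45 ribosomal protein genes Rpl23 was higher (0.53, adjusted p = 0.0274), and of 31 proteasome genes Psma1 (0.60, adjusted p = 0.0242). The only call among 15 genes of the Toll-like receptor list was Tlr4. Each of Cdc20, Jund, Rpl23 and Psma1 lost its call when at least 1 rat was left out, with an adjusted p of up to 0.414, 0.142, 0.267 and 0.207.

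Some lower genes turned on 1 array. Krt85, a keratin of hair, read 2.47, 6.13, 2.55 and 2.47 at day 0 and 1.92, 1.68, 1.78 and 1.92 at day 21. Replicate 2 at day 0 stood far above every other array. The fitted change was −1.58 (SE 0.37, adjusted p = 0.0167 by limma), and without that rat it was −0.63 (adjusted p = 0.0741). Krtap1-1, a keratin-associated protein of the hair shaft, went from 1.74, 5.42, 2.73 and 1.56 to between 1.08 and 1.63 in the 4 rats. Its change of −1.55 (adjusted p = 0.0386) was −0.71 without replicate 2 (adjusted p = 0.323) and had an adjusted p of 0.104 without replicate 3. Over 41 probe sets of hair keratins and keratin-associated proteins, gathered after these values were seen, the mean signal was 4.37 on that array and 2.24 to 2.58 on the other 19 naive arrays, and 3 of the 41 were called lower. With the array left out, 483 probe sets were called in all, 72 higher and 411 lower. A list for skin, vessel wall and connective tissue had means between 1.95 and 2.36 on the 8 arrays. Of its 22 genes (median −0.22) only Acta1, skeletal muscle actin, was called (−0.83, adjusted p = 0.0485), and it was lost without any 1 of the 4 rats (adjusted p from 0.0929 to 0.179). Over all 14557 genes, 338 were called lower. The part that hair or skin RNA had in these calls was not tested beyond this.

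**Figure D3:**
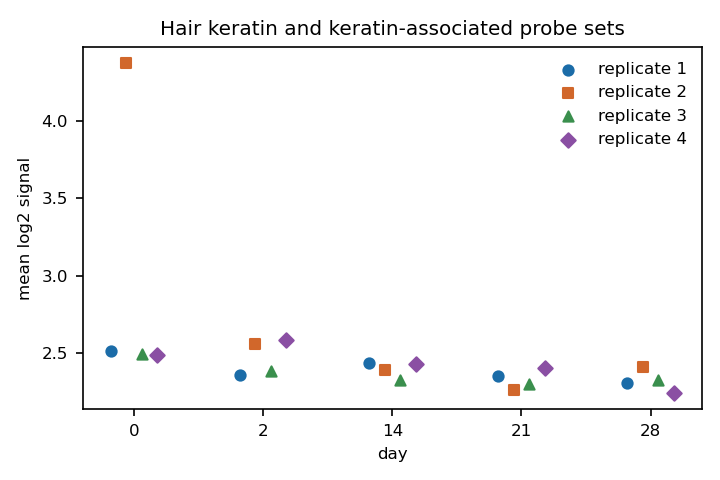
Mean log2 signal of 41 hair keratin and keratin-associated probe sets (y axis) on each of the 20 naive arrays by day (x axis), with 1 symbol per rat. Replicate 2 at day 0 is at 4.37, and all other arrays lie between 2.24 and 2.58.

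Day 21 was also set against the mean of days 2 and 14 of the same rats, which uses none of the day 0 arrays. This comparison called 371 probe sets (1.01%), 36 higher (0.0981%) and 335 lower (0.913%). Of the 678 called against day 0, 299 were called here with the same sign, and 674 had the same sign. As both comparisons hold the same day 21 arrays, these are not separate evidence. Map2k3, a kinase of the p38 pathway, was between 8.96 and 9.73 in the early bleeds (9.72, 9.22, 9.61 and 9.07 at day 2, 9.73, 9.05, 9.59 and 8.96 at day 14) and at 8.73, 8.70, 8.62 and 8.09 at day 21. Each rat was lower at day 21 than on both early days, by 0.83 in the fit (SE 0.10, adjusted p = 2.77e-05 by limma). Slc6a9 (−1.02), Tinagl1 (−1.07), Rnf123 (−0.85), and Stradb, a pseudokinase (−0.66), were also among the smallest p-values. Within the lists, 18 of 40 erythroid genes were lower, beside 220 lower of all 14557 genes. Of 28 NK genes 4 were higher, including Gzmk (0.85) and Klrd1 (0.82), beside 14 higher of all 14557. None of 27 neutrophil genes passed (median 0.11), which at that share does not set them apart from all genes. Without replicates 1 to 4 in turn, the total of this comparison was 147, 527, 95 and 53.

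The other days of the naive rats are given side by side, since all share the day 0 arrays. Calls numbered 0 at day 2, with 2075 probe sets at an unadjusted p under 0.05, and limma called 4 at day 14 (0.0109%, with 0.00818% higher and 0.00273% lower). The 678 of day 21 were followed by 1684 at day 28 (4.59%, with 2.43% higher and 2.16% lower). The mean change of the erythroid list was −0.02 ± 0.11 (SD, n = 4 rats), −0.15 ± 0.12, −0.53 ± 0.13 and −0.55 ± 0.19 on days 2, 14, 21 and 28. That of the NK list was 0.01 ± 0.09, 0.15 ± 0.15, 0.35 ± 0.32 and 0.49 ± 0.15, and that of the neutrophil list −0.04 ± 0.11, 0.25 ± 0.09, 0.21 ± 0.17 and 0.41 ± 0.23. In the erythroid list the level at day 14 was much closer to day 0 than to day 21, whereas in the neutrophil list day 14 and day 21 were within their spread. Clic2 stepped down at each bleed (−0.52, −1.12, −1.87 and −2.40), while Klf1 was at −0.25, −0.32, −1.02 and −1.10. Sfxn3 was at −0.02 and 0.09 at days 2 and 14, at −1.16 at day 21 and at −0.73 at day 28.

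**Figure D4:**
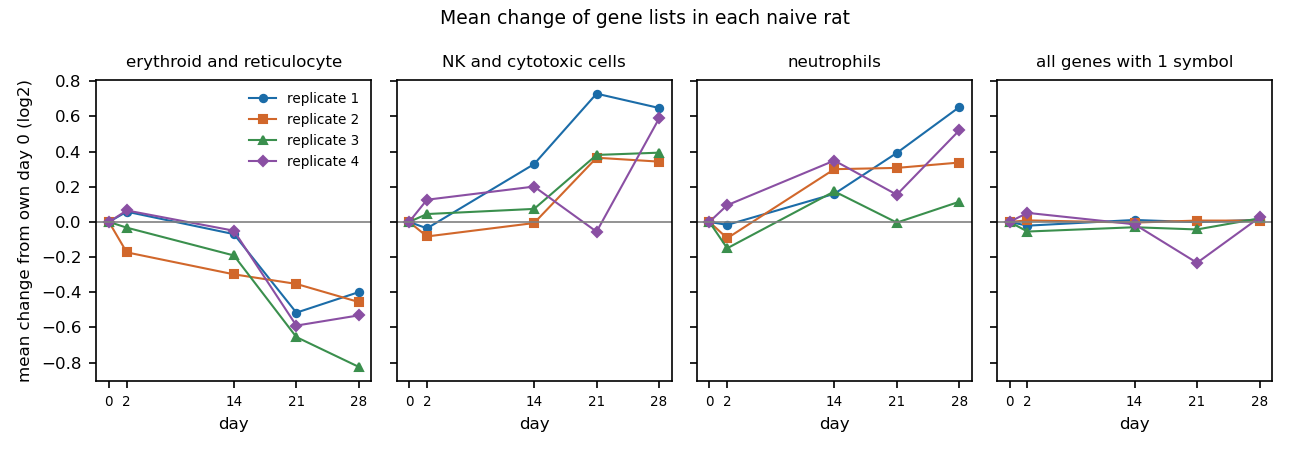
Mean log2 change from the rat's own day 0 (y axis) over the genes of 4 lists by day of bleeding (x axis), 1 line per naive rat. The erythroid means of day 21 lie between −0.65 and −0.35, and replicate 4 dips at day 21 in the panel of all genes with 1 symbol.

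The same transcripts were then read in the MIA rats, other animals on other arrays, of which 5 had an array at day 21 in the fit. Of the 678 probe sets called in naive rats, 659 (97.2%) had the same sign in MIA rats, against 66.8% of all probe sets. In MIA rats 984 probe sets were called (2.68%), 306 higher (0.834%) and 678 lower (1.85%). The 392 probe sets called in both groups all had the same sign, 53 higher and 339 lower, and were 57.8% of the naive and 39.8% of the MIA calls. Both comparisons came from the same fit with a shared variance per probe set, so the calls of the groups are not independent. Changes of the naive calls were smaller in MIA rats, with medians of 0.48 against 0.72 for the higher and −0.54 against −0.69 for the lower ones. The naive values chose these probe sets, so the gap between the medians is no comparison.

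For the lists, the MIA rats were counted in the same way. In these rats 24 of 40 erythroid genes were lower (median −0.51), 6 of 28 NK genes were higher (0.32), 6 of 27 neutrophil genes were higher (0.22), 9 of 58 oxidative phosphorylation genes were lower (−0.14) and 8 of 27 autophagy genes were lower (−0.19), where 115 of all 14557 genes were higher and 386 lower (−0.04). The erythroid mean was −0.45 ± 0.14 (SD, n = 5 rats). Clic2 fell by 1.84, Sdc3 by 1.38 and Tinagl1 by 0.96, all called by limma (adjusted p = 5.26e-08, 5.79e-07 and 6.88e-05), and Gzmk and Gzma rose by 1.22 and 1.58 (adjusted p = 4.24e-05 and 1.44e-05). Klf1 (−0.49, adjusted p = 0.111), Klrd1 (0.62, adjusted p = 0.0799), Ncr1 (0.60, adjusted p = 0.104) and Ly49si1 (0.73, adjusted p = 0.305) did not pass in MIA rats. Other named genes called in naive rats did not pass here either, among them Clec5a, Sfxn3, Steap3, Hmox1, Tlr4, Ctsd, Jund, Psma1, Rpl23 and Mir223. Zfp617, Acta1, Krt85 and Krtap1-1 were also not called in MIA rats.

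The difference between the groups was itself tested, by taking the day 21 change of naive rats from that of MIA rats. No probe set was called by limma (0 of 36685), and 1531 (4.17%) had an unadjusted p under 0.05. Among the 678 naive calls, 102 (15.0%) did so, a set that the naive values had chosen. The smallest p-values belonged to Ythdf2, a reader of methylated RNA, Tmem185b, a membrane protein, and Kcna5, a potassium channel. Ythdf2 fell in naive rats from between 4.45 and 4.74 to between 3.74 and 4.06, without overlap, and rose by 0.17 in MIA rats, a difference of 0.81 (SE 0.20). The differences for Tmem185b and Kcna5 were 0.77 (SE 0.20) and −0.89 (SE 0.24), and all 3 had an adjusted p of 1.00. For Tbc1d17 the difference was 0.76 and for the erythroid list the median difference was 0.05. A test that misses the threshold with 4 and 5 rats does not show that the groups changed alike.

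**Figure D5:**
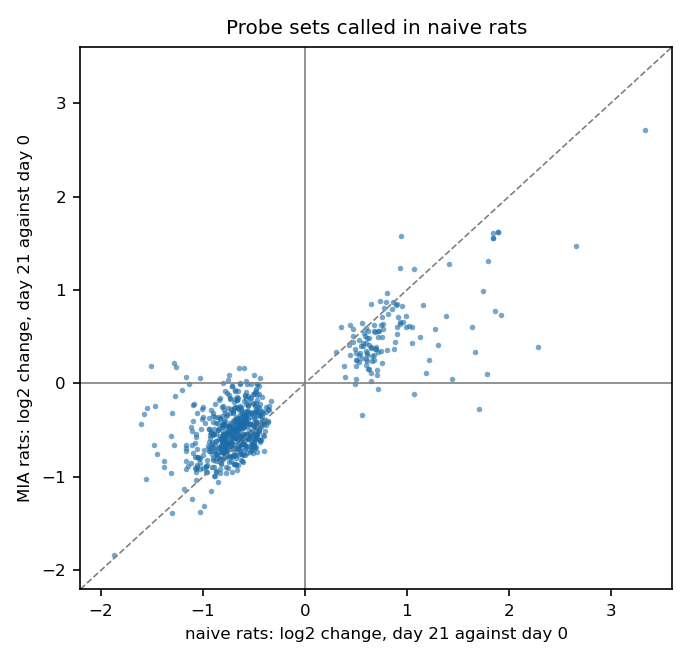
Log2 change from day 0 to day 21 in naive rats (x axis) and in MIA rats (y axis) for the 678 probe sets called in naive rats, with the line of equal change dashed. Of these, 659 lie in the quadrants where both groups have the same sign.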

How the data were processed

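Whole blood RNA of 10 rats was measured on 50 Affymetrix arrays. The authors subtracted background, normalized by quantiles and took logarithms, and each deposited value is the log2 signal of 1 probe set on 1 array. The submitters' notes name oligo 1.36.1, and the summary of probes is not given in the sources used here. Quantile normalization makes each signal relative to the rest of its array. The number of arrays limits the precision. The labels give 4 naive and 6 MIA rats, and nothing in them gives scan dates.

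Gene symbols came from the platform annotation: 14824 probe sets had 1 symbol, 829 several and 21032 none. Of the symbols 14670 were matched to RefSeq's GRCr8 table, and 0 changed. Promoters and microRNAs are RefSeq's.

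Models were fitted with limma 3.58.1 (R 4.3.3) to 49 arrays, with a mean per treatment and day, the rat as a fixed block and two-sided moderated tests. P-values were adjusted by Benjamini-Hochberg over 36685 probe sets at 0.05. The code was tested on simulated data. MIA day 21 replicate 4 (lower spread of signals) was left out. The same animal label joins arrays of a rat. Deviations from the mean of a day correlated between day 0 and day 21 at 0.0612, 0.0991, 0.0582 and 0.184 within naive rats. The means with the other rats were −0.0921 to −0.00302. Such deviations cancel within a day, so positive values within rats force negative ones between them. The contrast is therefore no separate support for the block. Named genes were up to 12 per direction with the largest change, 1 symbol and 1 sign in all rats, up to 4 per list by smallest p, and 3 for the difference between treatments. Each list used the brightest probe set of a gene. Members and lists were chosen with earlier results of these data known. Alternatives left out each rat or 1 array, and changed the block, arrays, variances, weights, scaling and the filter on dim probe sets.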

Additional observations from a re-analysis of the deposited data

Results flagged for a closer look

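In 69 genes and 2 days, 138 groups of 4 naive arrays were examined for 1 array lying apart from the other 3, and 8 had one, where chance alone gives about 1 in 20. At day 0, Krt85 was at 6.13 in replicate 2 (others 2.47 to 2.55), and Acbd4 was at 4.90 in replicate 2 (others 5.46 to 5.54). Replicate 4 was low at day 0 for Rnf123 at 7.98 (others 8.71 to 8.77), for Blvrb at 8.71 (others 9.41 to 9.55) and for Pkm at 4.44 (others 5.11 to 5.24). Steap3 was at 5.11 in replicate 1 at day 0 (others 4.24 to 4.34). At day 21, Tinagl1 was at 6.69 in replicate 4 (others 7.92 to 8.09) and Aqp1 was at 9.63 in replicate 2 (others 9.24 to 9.29). Pkm was not called between the days, and the call of Krt85 was lost without replicate 2. That of Steap3 held without replicate 1 and was lost without replicate 3 or 4.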

How the results depend on the processing

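Of 69 genes named, 62 were called, and 22 kept the call whichever naive rat was left out. Of the 62, 36 kept it with naive arrays only, 19 with a random block, 13 with no replicate block, 3 with all 50 arrays and 0 with the 8 arrays alone. The counts of calls moved as well, and the cause was not tested. For naive day 21 against day 0 (678, 125 higher and 553 lower), the fit with no replicate block gave 122 (14 and 108), the rat as a random block 178 (29 and 149), all 50 arrays 7 (3 and 4), naive arrays only 236 (39 and 197) and the 8 arrays alone 0. Leaving out 1 rat gave 268 to 585 calls, 41 to 95 higher and 227 to 503 lower. Array weights gave 352 higher, a shift to equal medians 243 higher and 337 lower, and new quantile normalization 297 higher. Single arrays were left out after seeing the data. Without day 21 replicate 4, 259 were higher and 328 lower, and without day 0 replicate 2, 72 were higher. For day 21 against days 2 and 14 (371), the values were 14 with no replicate block, 38 with a random block, 2 with all 50 arrays, 61 with naive arrays only, 53 to 527 with 1 rat left out, and 152 without the array of day 21 replicate 4. For MIA rats (984), they were 244, 365 and 583 in the first 3 of these fits and 2211 with array weights. Fits of naive arrays alone give no value for MIA rats, and the 8 arrays none for days 2 and 14.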
